A study of Mus musculus with 6 samples.

Results

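Water leaves the renal tubule through aquaporins, channel proteins of the cell membrane, and the last step of this flow is under the control of vasopressin. The 8 genes described here are Aqp1, Aqp2, Aqp3, Aqp4, Aqp5, Aqp6, Aqp11 and Avpr2, the gene of the vasopressin V2 receptor. They were chosen by symbol as water channels of tubule, vessel and collecting duct, and all 8 are among the 23219 genes of the deposited table. The RNA came from whole kidneys of mouse embryos at day 17 (E17), from 3 control kidneys of genotype Mta2flx/flx (numbered 5, 7 and 11) and 3 mutant kidneys of genotype Six2Cre Mta2flx/flx (numbered 6, 8 and 9). Both groups carry floxed Mta2, which encodes a subunit of the NuRD chromatin complex, and the Cre transgene is present in the mutant group alone, so the effect of Cre itself cannot be told apart from that of the deletion. Six2 Cre acts in nephron progenitors, from which the nephron arises, whereas the collecting duct grows from the ureteric bud. Separate embryos or litters are not stated in the labels, so each p-value reflects the scatter of these 6 kidneys alone, and that scatter may be technical.

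In the collecting duct, vasopressin binds the V2 receptor on the basolateral side, the receptor raises cAMP through the G protein Gs, and protein kinase A then drives vesicles with aquaporin 2 to the apical membrane. Water crosses the apical membrane through aquaporin 2 and leaves the cell through aquaporins 3 and 4 of the basolateral membrane. Aquaporin 1 serves the proximal tubule, the thin descending limb and the descending vasa recta, and red blood cells carry it too. Aquaporin 6 sits in vesicles of intercalated cells and aquaporin 11 inside proximal tubule cells, where its loss in mice gives polycystic kidneys. Aquaporin 5 is best known from salivary, lacrimal and lung epithelium.

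The 3 most abundant members per length are shown with the sequence upstream of their start sites, since they account for most of the coverage of the members. Each sequence is the 250 bases before the RefSeq transcription start (GRCm38.p6), 5′ to 3′ on the strand of the gene. Aqp1 lies on the plus strand at chr6:55336049-55336298, Aqp2 on the plus strand at chr15:99578806-99579055 and Aqp3 on the minus strand at chr4:41098184-41098433. Capitals mark matches on either strand to the letters CGTCA (the short form of the cAMP response element), GATAA (GATA factors), TATAA (the TATA box) and GGGCGG (the GC box).
Aqp1: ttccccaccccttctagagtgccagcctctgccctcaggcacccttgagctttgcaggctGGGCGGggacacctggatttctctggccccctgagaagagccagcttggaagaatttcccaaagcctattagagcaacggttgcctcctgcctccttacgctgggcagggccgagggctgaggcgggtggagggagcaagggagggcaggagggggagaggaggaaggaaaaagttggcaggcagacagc
Aqp2: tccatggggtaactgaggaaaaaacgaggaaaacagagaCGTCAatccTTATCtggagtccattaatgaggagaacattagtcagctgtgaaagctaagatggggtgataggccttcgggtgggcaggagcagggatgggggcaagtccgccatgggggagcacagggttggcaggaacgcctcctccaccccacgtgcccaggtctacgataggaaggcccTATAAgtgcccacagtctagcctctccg
Aqp3: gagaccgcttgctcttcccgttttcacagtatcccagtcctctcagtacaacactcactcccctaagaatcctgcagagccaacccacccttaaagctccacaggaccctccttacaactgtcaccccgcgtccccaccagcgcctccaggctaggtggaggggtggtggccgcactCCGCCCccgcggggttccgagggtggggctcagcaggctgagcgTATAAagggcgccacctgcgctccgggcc

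Aqp2 and Aqp3 both hold the TATA letters close to the start, 28 and 29 bases before it, Avpr2 holds them on the other strand 44 bases before it, and Aqp1 holds none in this window. The cAMP short site of Aqp2 begins 211 bases before the start and its GATA letters 202 bases before it. Promoter windows of 300 bases (250 before and 50 after the start) were found for 7 members, all but Aqp4. The short site was in 1 of the 7 and in 20.8% of all 32851 promoter windows, and the full cAMP response element TGACGTCA, which contains the short site, was in 0 of the 7 and in 1.79% of all. GATA letters were in 2 of the 7 (25.4% of all), TATA letters in 3 (24.9%) and GC box letters in 3 (35.7%). A match describes letters and not binding, and no match says only that these letters are not in this window.

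The deposited values are covered bases per gene, summed over reads. They were scaled here to a total of 1e+06 per library, a unit called BPM below. The libraries held 794 to 1235 megabases, so that 1 BPM stands for 794 to 1235 covered bases, and 14467 to 16646 genes had coverage. Read numbers are unknown, so no counting interval is given. Mta2 stood at 198 to 220 BPM in control and at 140 to 189 BPM in mutant kidneys, without overlap. Control 11 stood apart by its coverage of Lars2 (2.30% of all bases, against 0.0739% to 0.482% elsewhere), and mutant 9 by skeletal muscle transcripts, whose 14 marker genes summed to 388 BPM against 31.1 to 53.0 BPM in the other libraries.

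The collecting duct members did not separate the genotypes, and the sets of mutant and control values overlapped for all 8 genes. Of the 7 members tested, 0 passed an adjusted p of 0.05 in limma, as did 0 (0%) of the 13977 genes tested. By unadjusted p 1 of the 7 (Aqp1) lay below 0.05, against 5.60% of all genes. None of the 7 was without overlap between the groups, against 11.2% of all genes, and 4 of the 7 had a log2 fold change below 0, against 47.4%. Their median log2 fold change was -0.09 and that of all genes 0.02. Aqp5 did not reach 1 BPM in the 3 libraries the test required and was not tested. In whole kidneys, fewer cells of a type and less RNA per cell cannot be told apart.

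**Figure D1:**
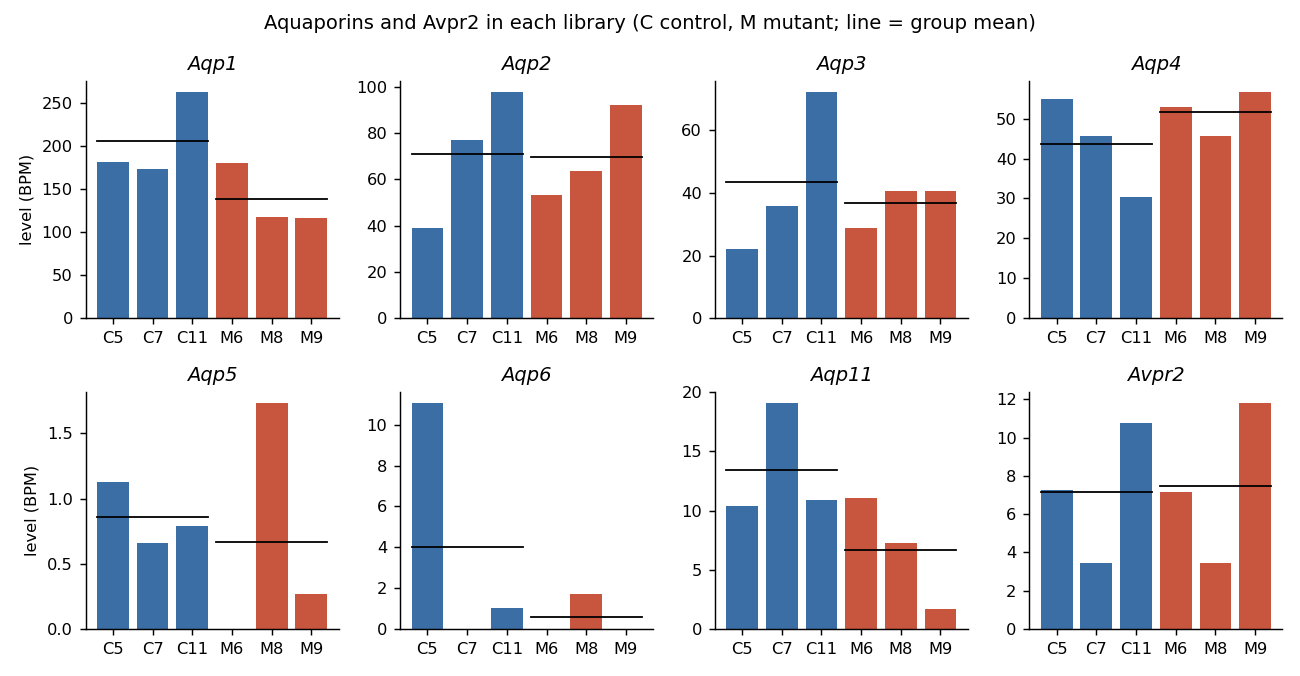
Level of each gene in BPM (covered bases scaled to a total of 1e+06 per library) in control kidneys C5, C7 and C11 and mutant kidneys M6, M8 and M9; bars are single libraries and lines group means. The groups overlap for every gene, and Aqp1 runs from 173 to 262 BPM in control and from 116 to 180 BPM in mutant kidneys.

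Avpr2, the receptor at the head of the pathway, read 7.24, 3.46 and 10.7 BPM in controls 5, 7 and 11, against 7.14, 3.46 and 11.8 BPM in mutants 6, 8 and 9. Each genotype thus had a low, a middle and a high kidney at nearly the same levels. The means were 7.15 ± 3.64 and 7.47 ± 4.19 BPM (SD, n = 3 each), and the log2 fold change was 0.03 with a 95% interval from -1.22 to 1.29 (limma adjusted p = 0.997). The gene lies on the plus strand of the X chromosome (73892102 to 73895502, mm10), and 81.3% of its exonic bases are shared with exons of Arhgap4 on the other strand. Of the 20 annotated Arhgap4 transcripts 12 share some of these bases. A single long one, Arhgap4-203, holds all 2347 of them, and the transcript with the next largest share, Arhgap4-201, holds 612. Whether the authors counted by strand is not given in the sources used here. Arhgap4 read 2.21, 7.40 and 3.28 BPM in controls 5, 7 and 11, against 2.43, 4.47 and 5.17 BPM in mutants 6, 8 and 9. The ratio of Avpr2 to Arhgap4 ran from 0.468 to 3.28 over the 6 libraries, so the pair did not move in step, and the share of antisense coverage in the Avpr2 values was not tested.

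Aqp2, the apical channel that vasopressin regulates, read 39.0, 76.9 and 97.7 BPM in controls 5, 7 and 11, against 53.2, 63.6 and 92.1 BPM in mutants 6, 8 and 9. All 3 mutant values lay inside the control range. The means were 71.2 ± 29.8 and 69.6 ± 20.1 BPM (SD, n = 3 each), with an exact two-sided permutation p of 1. The fitted log2 change was 0.03 (SE 0.30, 95% interval -0.59 to 0.64, limma adjusted p = 0.994), and its sign turned without control 5 (-0.35) or mutant 9 (-0.19). The interval leaves room for a difference in either direction, so equal levels are not shown.

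Aqp3, a basolateral channel that also passes glycerol, stood in controls 5, 7 and 11 at 22.2, 35.9 and 72.2 BPM, and mutants 6, 8 and 9 gave 28.9, 40.7 and 40.7 BPM. As for Aqp2, the control kidneys held both the lowest and the highest level. The means were 43.4 ± 25.8 and 36.8 ± 6.80 BPM, and the log2 fold change was -0.09 (95% interval -0.82 to 0.64, limma adjusted p = 0.985). The sign rested on single libraries, since it was 0.35 without control 11 and 0.07 without mutant 6. Urothelium of the renal pelvis also makes aquaporin 3, and its 8 marker genes, none of them at 0 throughout, summed to 95.5 to 126 BPM in control and 76.9 to 136 BPM in mutant kidneys. Their part in the Aqp3 values was not tested.

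Aqp4, the other basolateral channel, read 54.8, 45.7 and 30.4 BPM in controls 5, 7 and 11, against 52.9, 45.7 and 56.6 BPM in mutants 6, 8 and 9. Control 11 was the lowest and the other 5 libraries lay close together. The means were 43.6 ± 12.3 and 51.7 ± 5.54 BPM, with a log2 fold change of 0.27 (95% interval -0.34 to 0.89, limma adjusted p = 0.931). Without control 11 it was 0.04 and without control 5 it was 0.46. Skeletal muscle also makes aquaporin 4, and the fold change without mutant 9, the library with muscle transcripts, was 0.21.

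**Figure D2:**
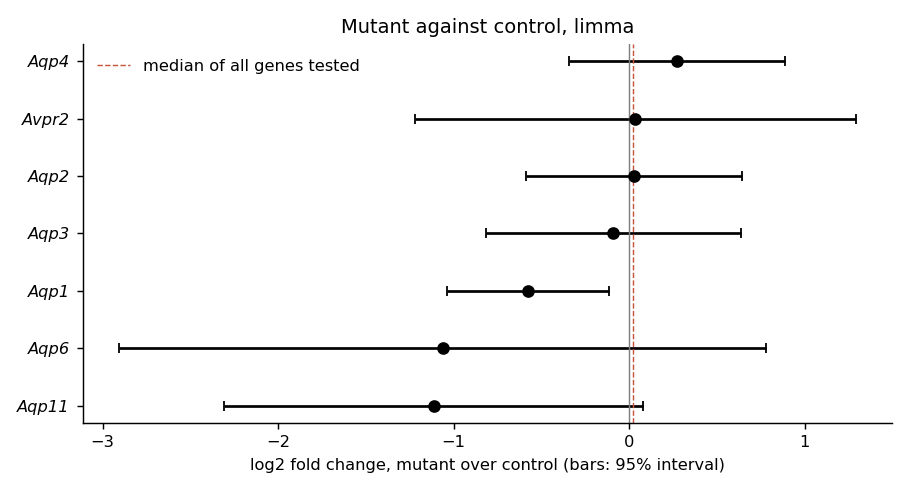
Log2 fold change of mutant over control on the log2(BPM + 1) scale for the 7 tested genes, with 95% intervals from limma; the dashed line is the median of all genes tested (0.02). The Aqp1 interval (-1.04 to -0.11) lies below 0, and the other 6 include 0.

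Within the collecting duct group, Aqp2 and Aqp3 kept a similar proportion, while Aqp4 and Avpr2 each varied more against Aqp2. The ratio of the Aqp3 to the Aqp2 level ran from 0.441 to 0.739, a 1.68-fold range over the 6 libraries. The ratio of Aqp4 to Aqp2 ran from 0.311 in control 11 to 1.41 in control 5, a 4.52-fold range, and that of Aqp4 to Aqp3 spanned 5.87-fold. For Avpr2 over Aqp2 the range was 4.13-fold, from 0.0450 in control 7 to 0.186 in control 5. These ratios share libraries and are given as a description. The genotypes overlapped in each ratio. Aqp3 over Aqp2 was 0.592 ± 0.137 in control and 0.541 ± 0.0996 in mutant kidneys, and Aqp4 over Aqp2 was 0.771 ± 0.569 and 0.775 ± 0.196 (SD, n = 3 each).

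GC content differed between these members, and control 11 stood apart by it. The longest annotated transcript of Aqp2 has 63.2% G and C, higher than 99.1% of the genes tested or equal to them, that of Aqp3 53.0%, that of Aqp1 54.9% and that of Aqp4 41.4%. In control 11 the quintile of all genes with the lowest GC content had a median deviation of -0.32 from the gene means (log2), and the quintile with the highest 0.21. In the other 5 libraries these outer quintiles deviated by -0.11 to 0.15. After each library was corrected for GC content, a step chosen after seeing the data, the deviation of Aqp4 in control 11 was -0.26 in place of -0.60, and that of Aqp2 0.31 in place of 0.53. Aqp3 in control 11 changed little, from 0.93 to 0.87, and in control 5, where the ratio of Aqp4 to Aqp2 was highest and the quintiles deviated by 0.03 to 0.06, Aqp2 stayed at -0.78 (-0.77 uncorrected). The corrected fold changes were 0.07 for Aqp2, -0.05 for Aqp3, 0.14 for Aqp4 and -0.53 for Aqp1, and 0 members passed in limma.

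**Figure D3:**
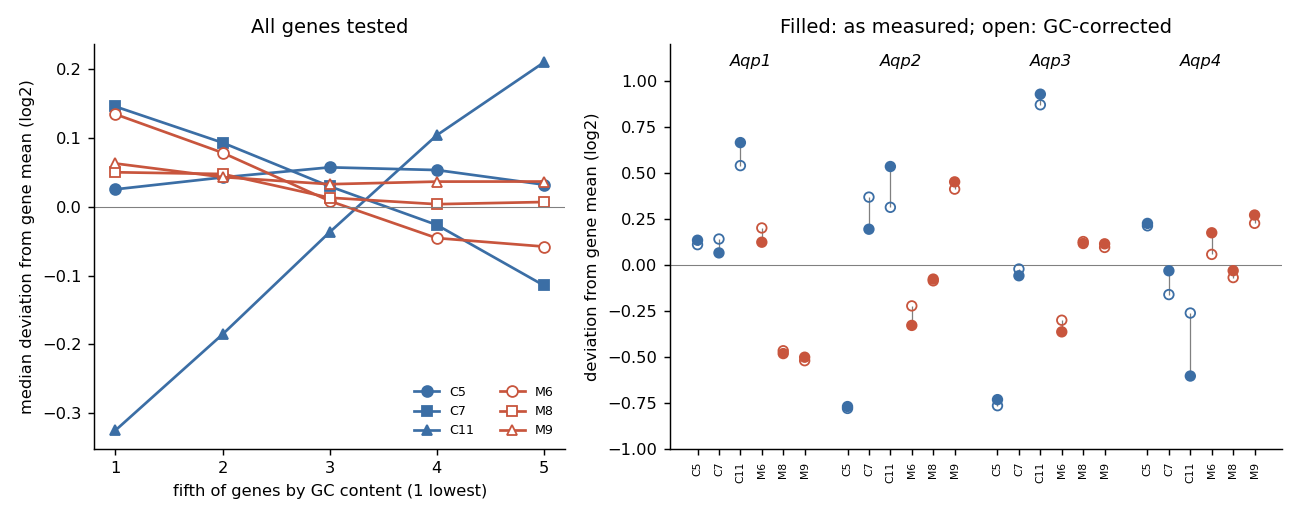
Left, median deviation of all tested genes from their mean over the 6 libraries (log2), by quintile of transcript GC content; control 11 (C11) climbs from -0.32 to 0.21. Right, the same deviation for Aqp1 to Aqp4 in each library, measured (filled) and GC-corrected (open); Aqp4 in C11 shifts from -0.60 to -0.26.

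Set against 20 marker genes of collecting duct and ureteric epithelium, the same members showed no separation of the genotypes. The log2 level of Aqp2 minus the mean log2 level of these genes was -0.40, 0.86 and 1.07 in controls 5, 7 and 11, against -0.03, 0.43 and 0.74 in mutants 6, 8 and 9, so the mutants again lay inside the control range. The mutant minus control difference was -0.13 for Aqp2, -0.25 for Aqp3, 0.12 for Aqp4 and -0.12 for Avpr2, with exact two-sided permutation p from 0.7 to 1. With the median of the marker genes in place of their mean, these differences were -0.03, -0.15, 0.22 and -0.02, so their size depended on that choice. The marker genes themselves differed by 0.16 in mean log2 level (exact permutation p = 0.2), and 0.1 is the smallest p that 3 against 3 kidneys allow. Of the 20 markers 0 were called (0 of all 13977 genes), 14 lay above 0 and 6 below (47.4% of all genes). Their median log2 fold change was 0.10 (0.02 for all genes).

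**Figure D4:**
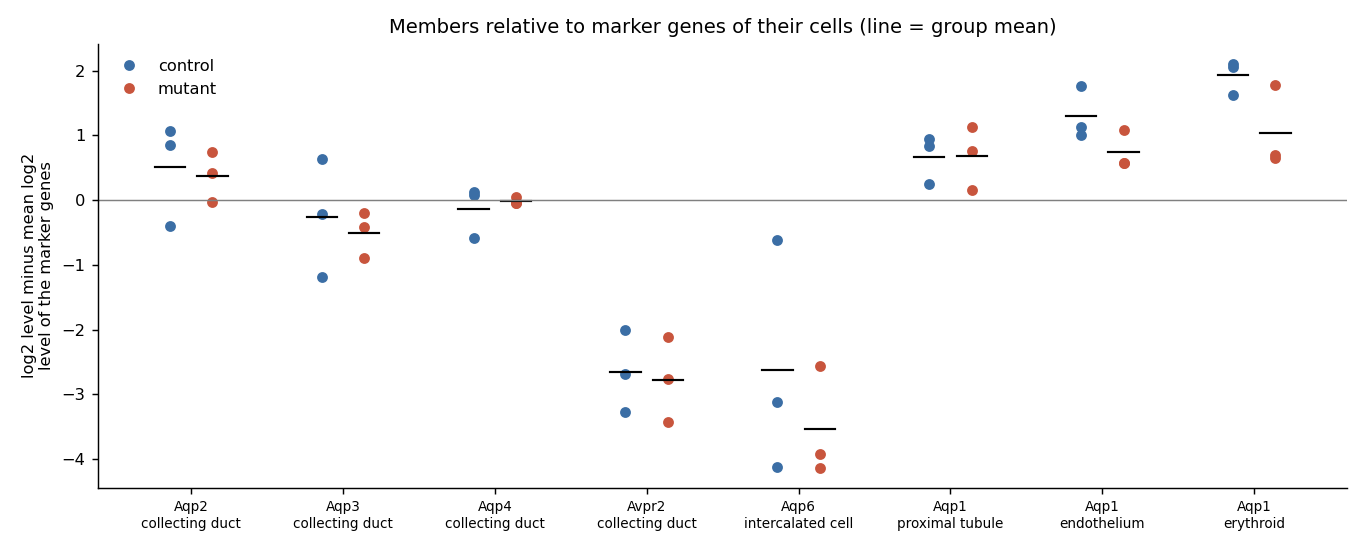
Log2(BPM + 1) of each member minus the mean of the marker genes named under it, for each library (control blue, mutant red, lines are group means). The 2 groups intermingle for all comparisons of the collecting duct members, and for Aqp1 against proximal tubule genes the means are 0.67 and 0.68.

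Aqp1, the main channel of the proximal tubule and thin descending limb, had the smallest p of the members. Its level was 181, 173 and 262 BPM in controls 5, 7 and 11, against 180, 118 and 116 BPM in mutants 6, 8 and 9. Mutants 8 and 9 lay below all controls, whereas mutant 6 lay between controls 7 and 5. The means were 205 ± 49.3 and 138 ± 36.2 BPM (SD, n = 3 each), so mutant kidneys held 67.2% of the control level. On the log2 scale mutants differed by -0.57 (SE 0.23, 95% interval -1.04 to -0.11, unadjusted p = 0.0164, limma adjusted p = 0.854), and the exact two-sided permutation test gave p = 0.2. It did not pass, and leaving out single libraries gave values from -0.78 (without mutant 6) to -0.39 (without control 11). The authors' deposited table gives Aqp1 a ratio of 0.672 with an unadjusted p of 0.13, the smallest p of the 8 members there.

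The level of Aqp1 relative to other proximal tubule genes differed by less than the spread between kidneys. Of 20 proximal tubule markers 0 were called and 19 had a log2 fold change below 0 (47.4% of all genes), with a median of -0.48 (0.02 for all genes). The groups did not overlap for 5 of the 20 (11.2% of all genes), and 8 had an unadjusted p below 0.05 (5.60% of all genes). This list was written with earlier results of these data known and is not independent support. Relative to the mean log2 level of these markers, Aqp1 stood at 0.67 ± 0.37 in control and 0.68 ± 0.49 in mutant kidneys, a difference of 0.01 (exact permutation p = 1). Relative to 14 endothelial markers the difference was -0.56 (1.3 ± 0.40 in control, 0.75 ± 0.30 in mutant, exact permutation p = 0.2), while the endothelial markers themselves differed by -0.02. Without control 11 this difference was -0.33. Relative to the 5 erythroid genes tested it was -0.89 (exact permutation p = 0.2), and -0.33 when the median of these genes replaced their mean. Of 12 listed erythroid genes 9 were in the deposited table, and the beta globins Hbb-bs and Hbb-bt were not, under these symbols. The 9 genes, of which Hbb-bh1 was at 0, summed to 1065 to 1474 BPM in control and 1041 to 1929 BPM in mutant kidneys. This sum thus leaves out part of the red cell RNA, and the part of red cells in the Aqp1 values was not tested.

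Among the intracellular aquaporins, Aqp11 read 10.4, 19.1 and 10.9 BPM in controls 5, 7 and 11, against 11.0, 7.24 and 1.70 BPM in mutants 6, 8 and 9. Mutant 6 lay inside the control range, and mutants 8 and 9 lay below it. The means were 13.4 ± 4.88 and 6.66 ± 4.70 BPM, with a log2 fold change of -1.11 (95% interval -2.31 to 0.08, limma adjusted p = 0.887). Without mutant 9, where 1689 bases were covered, it was -0.49.

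Aqp6, the vesicle channel of acid-secreting intercalated cells, had little coverage. It read 11.1 BPM in control 5, 1.03 in control 11 and 1.69 in mutant 8, and was listed at 0 in control 7 and in mutants 6 and 9. Control 5 alone held most of the coverage, and the log2 fold change was -1.06 (95% interval -2.90 to 0.78, limma adjusted p = 0.914). Its size depended on the pseudocount, at -2.04 with 0.1 and -3.13 with 0.01 in place of 1, and it was -1.83 without control 7. Without control 5 the gene was below the minimum and was not tested. The summed level of the 10 intercalated cell markers did not share this peak, at 230 BPM in control 5 against 197 to 241 BPM in the other libraries. Of the single markers, Atp6v1c2 was highest in control 5 (14.5 BPM, against 2.72 to 13.6 BPM elsewhere), and every other marker was highest in another library. Of these 10 genes 7 had a log2 fold change below 0 (47.4% of all genes), with a median of -0.21 (0.02 for all genes). Of the 10, 0 were called, against 0 of all 13977 genes tested.

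Aqp5 was at the edge of detection, at 1.13, 0.659 and 0.789 BPM in controls 5, 7 and 11, against 0, 1.73 and 0.271 BPM in mutants 6, 8 and 9. The highest value corresponds to 1627 covered bases, and no fold change is given. Of 8 marker genes of lung and salivary epithelium 5 were at 0 in all libraries, among them the surfactant gene Sftpc, and the list summed to 1.36 BPM or less in each library. Aqp2, Aqp5 and Aqp6 follow each other on the plus strand of chromosome 15 (99579055 to 99605477, mm10), with gaps of 6234 and 6570 bases. The 3 neighbours thus had very unequal levels. The nearest tested genes on either side, Bcdin3d and Racgap1, read 3.8 to 20.8 BPM and 96.7 to 143 BPM.

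Per kilobase of annotated exon, and by the mean over all 6 libraries, the members fell into an order that spanned more than 2 orders of magnitude. Aqp1 came first at 78.1 ± 18.8 BPM per kb in control and 52.5 ± 13.8 in mutant kidneys, and Aqp2 second at 50.2 ± 20.99 and 49.1 ± 14.2 (SD, n = 3 each). Aqp1 was above Aqp2 in 5 of 6 libraries, the exception being mutant 9, and their ranges overlapped. Aqp3 came next at 23.7 ± 14.1 and 20.1 ± 3.72 BPM per kb, below Aqp2 in 6 of 6 libraries although the ranges overlapped. Aqp4 followed at 7.00 ± 1.98 and 8.30 ± 0.888 BPM per kb, apart from Aqp3 above it and from Avpr2 below it in every library. Below that gap, the ranges of Avpr2 (2.48 ± 1.26 and 2.59 ± 1.45), Aqp11 (1.43 ± 0.518 and 0.707 ± 0.499), Aqp6 (1.66 ± 2.52 and 0.233 ± 0.404) and Aqp5 (0.330 ± 0.0934 and 0.257 ± 0.359) each overlapped with the next. This order over all libraries was the same with the length of the principal transcript in place of all exons, a choice made after seeing the data. The gap below Aqp4 was not, since by the principal transcript the ranges of Aqp4 and Avpr2 overlapped. In controls alone Aqp6 stood above Aqp11 by all exons, and below it by the principal transcript, where the control levels were 1.96 BPM per kb for Aqp6, 3.60 for Aqp11 and 3.94 for Avpr2. The annotation the authors used is not given, so these lengths are those of GENCODE M21.

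**Figure D5:**
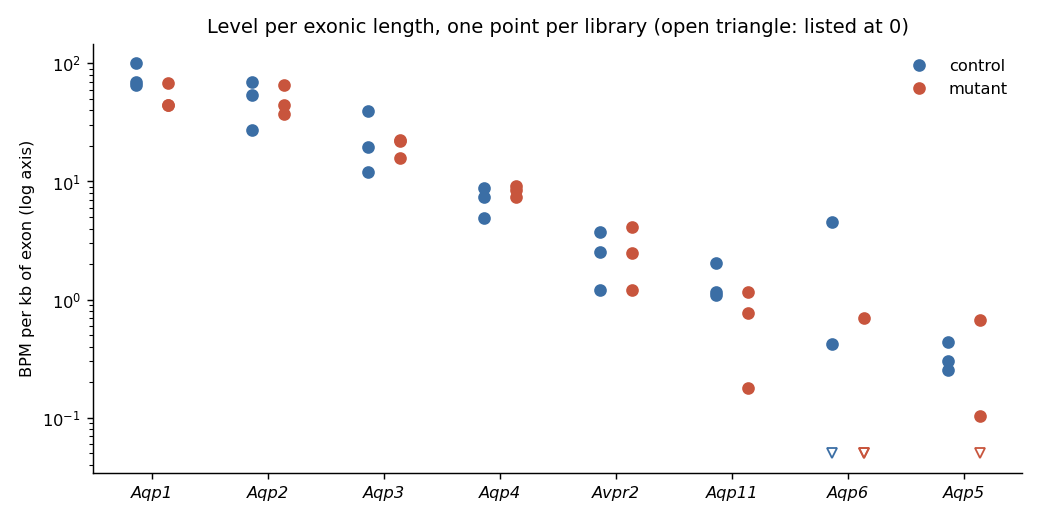
Level per kilobase of annotated exon (BPM per kb, log axis) for each library, in order of the mean; open triangles at the foot mark libraries listed at 0. Aqp1 and Aqp2 overlap at the top, Aqp4 stands clear of its neighbours by this length, and Aqp5 is below 1 in all libraries.

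The test called 0 of the remaining genes of the vasopressin pathway, as it called 0 of all 13977 genes. Of 37 genes from receptor coupling to vesicle transport 35 were tested, and 0 were called in either direction. Of the 35, 13 lay below 0 (47.4% of all genes) and 22 above. The median log2 fold change was 0.06 against 0.02 for all genes. The log2 fold changes of the list ran from -0.51 to 1.16. Gnas, which encodes the Gs alpha subunit, stood at 609 to 841 BPM in control and 652 to 800 BPM in mutant kidneys (log2 fold change 0.02). Adenylyl cyclase 6 (Adcy6) was at 0.07, the protein kinase A catalytic subunits Prkaca and Prkacb at 0.09 and 0.15, and the cAMP-responsive factor Creb1 at 0.01. These 5 were named for their place in the pathway after their values were seen. The 3 genes with the smallest p were Arhgdig (log2 fold change 1.16, from 1.34 to 6.33 BPM in control and 3.40 to 17.1 in mutant kidneys), Dynll1, a dynein light chain (0.40), and Rab5c, an early endosome GTPase (-0.33). For 2 of the 35 the genotypes were fully apart, which held for 11.2% of all genes. They were Rab5c, at 131 to 177 BPM in mutant and 187 to 197 BPM in control kidneys (limma adjusted p = 0.896), and Nsf, the ATPase that takes apart membrane fusion complexes, at 39.4 to 48.3 BPM in mutant and 52.2 to 65.9 BPM in control kidneys (log2 fold change -0.40).

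Transcription factors linked to Aqp2 or the collecting duct also gave no call, with 0 of 10 past the threshold, against 0 of all 13977 genes. Of these 10, 8 lay above 0 and 2 below, while 47.4% of all genes lay below 0. Their median log2 fold change was 0.10 (0.02 for all genes). Gata3, a zinc finger factor of the ureteric lineage, had a log2 fold change of 0.29. Nfat5, which responds to osmotic stress, read 370, 414 and 148 BPM in controls 5, 7 and 11, against 377, 435 and 433 BPM in mutants 6, 8 and 9 (log2 fold change 0.55). Control 11 was again the library that stood apart. Avpr1a and Oxtr, receptors of vasopressin and oxytocin outside the V2 pathway, had log2 fold changes of 0.62 and -0.15 and overlapped between the groups.

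For each member with a mean of at least 10 BPM, the genes most like it in level over the 6 libraries are given here. Candidates needed the same mean, which left out Avpr2, Aqp5, Aqp6 and the aquaporins outside the member list. Few water channels could thus appear, and their absence is no result. Likeness was the root mean square difference of log2 levels centred on the gene mean. For Aqp1 the nearest genes were Dusp18 (0.0904) and Pold1 (0.0946), for Aqp2 Smad4 (0.12) and Atp2a3 (0.126), and for Aqp3 Ints5 (0.142) and Mogs (0.147). For Aqp4 they were Peg3 (0.0534) and Ppp3ca (0.0559), both low in control 11, and for Aqp11 Mpv17l2 (0.216) and Aadac (0.232). With 6 libraries and 2686 to 9782 candidate genes, close profiles are common, and the likeness is a description.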

How the data were processed

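Per the labels' protocols, whole-kidney RNA was depleted of ribosomal RNA and made into libraries with an Ion Total RNA-seq kit. The build mm10 and bedtools are named without version, per the submitters' processing notes, and neither aligner nor annotation is given in the sources used. Per gene, the deposited signal equals coverage in bases plus 1, times a factor that gives all libraries the same total, as read from the values (100% whole multiples of the column minimum, tolerance 0.001). The deposited ratio and p-value are the authors' own comparison of group means, unadjusted.

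The factor and floor were removed and the coverage scaled to BPM. Genes that reached 1 BPM in 3 or more libraries entered the test as log2(BPM + 1) in limma 3.58.1 (R 4.3.3, trend and robust options, two-sided, Benjamini-Hochberg adjustment over 13977 genes). Fold changes on this scale understate those of low genes. The fit was checked on simulated data. For single values an exact two-sided permutation test over the kidneys was used. Members and gene lists were chosen with earlier results of these data known. Named genes are the members, up to 3 genes of each list by smallest p, the nearest profiles and neighbours, and others where said. Promoter windows are from RefSeq (GRCm38.p6), and gene models from GENCODE M21 (mm10 coordinates, 1-based). Alternatives covered scaling, filter, pseudocount, trend, weights, single libraries left out, and GC content (known for 94.2% of genes tested). Some items are not reported here.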

Additional observations from a re-analysis of the deposited data

How the results depend on the processing

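No member was called under any alternative tried (other scalings, filters and pseudocounts, no trend, sample weights, GC correction and libraries left out). The unadjusted limma p of Aqp1 rose above 0.05 without trend (0.098), with no filter (0.052) and without control 11 (0.066), mutant 8 (0.085) or mutant 9 (0.089). It stayed below 0.05 in the other alternatives. That of Aqp11 fell below 0.05 with sample weights (0.030), GC correction (0.045), without mutant 6 (0.018) and without control 11 and mutant 6 (0.023), and in no other alternative. The fold changes of Aqp1, Aqp4 and Aqp11 kept their sign wherever they were tested. Aqp6 was not tested without control 5, control 11 or mutant 8, the libraries that held its coverage. Its single-library range below comes only from leaving out libraries listed at 0 (control 7, mutants 6 and 9). The sign of Aqp6 was thus not tested without control 5, and relative to intercalated cell genes it turned there (0.081). The fold change of Aqp3 turned to 0.12 with sample weights and 0.51 without control 11 and mutant 6. With single libraries left out, the log2 fold change ran from -0.78 to -0.39 for Aqp1, 0.04 to 0.46 for Aqp4, -1.83 to -0.82 for Aqp6, -1.57 to -0.49 for Aqp11, -0.35 to 0.30 for Aqp2, -0.48 to 0.35 for Aqp3 and -0.35 to 0.43 for Avpr2. Relative to collecting duct genes the ranges were -0.58 to 0.15 (Aqp2), -0.71 to 0.20 (Aqp3), -0.11 to 0.24 (Aqp4) and -0.45 to 0.21 (Avpr2). They were -1.67 to 0.081 for Aqp6 against intercalated cell genes and, for Aqp1, -0.22 to 0.27 against proximal tubule, -0.73 to -0.33 against endothelial and -1.26 to -0.70 against erythroid genes. Over all genes, 1 was called with quantile normalization, 1 without trend, 4 with sample weights, 22 without control 11 and mutant 6, and 0 to 8 with single libraries left out (8 without control 11, 3 without mutant 8). The causes were not tested. No paired analysis was possible because the groups share no label numbers. Unknown read numbers limit what Aqp5, Aqp6 and Aqp11 can show.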

Other observations

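Of the other aquaporins, Aqp7, a glycerol channel of fat and proximal tubule, read 19.98, 3.61 and 4.54 BPM in controls 5, 7 and 11, against 6.09, 2.67 and 0.871 BPM in mutants 6, 8 and 9 (log2 fold change -1.15, 95% interval -2.60 to 0.29, limma adjusted p = 0.894). As for Aqp6, control 5 held the highest level. Mip and Aqp12 were at 0 in all libraries. Of the medullary osmolyte and urea genes 6 of 8 were tested and 0 called, against 0 of all 13977 genes. Hspa4l, a heat shock protein of the HSP110 family, read 8.06, 16.6 and 14.9 BPM in controls 5, 7 and 11, against 33.7, 21.1 and 37.9 BPM in mutants 6, 8 and 9, without overlap (log2 fold change 1.18). The urea transporter Slc14a1 read 5.47 to 7.61 BPM in control and 0.129 to 5.98 BPM in mutant kidneys (-1.32), and the osmolyte transporter Slc5a3, chosen after its values were seen, was at -0.07.

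The list of collecting duct and ureteric epithelium markers held Calb1, the gene of the calcium-binding protein calbindin. Which cells of the whole kidney gave the Calb1 values was not tested. Calb1 read 71.8, 68.7 and 65.02 BPM in controls 5, 7 and 11, against 119.7, 114 and 160.1 BPM in mutants 6, 8 and 9, without overlap. Its log2 fold change was 0.91 (95% interval 0.43 to 1.40, unadjusted p = 0.000536, limma adjusted p = 0.336). Hsd11b2, the enzyme that protects the mineralocorticoid receptor from glucocorticoids, read 7.96, 8.91 and 9.14 BPM in controls 5, 7 and 11, against 11.7, 17.6 and 18.97 BPM in mutants 6, 8 and 9 (log2 fold change 0.80). Wnt11, a ligand of the ureteric tip, was at 0.72, and Mal, chosen after its values were seen, at -0.35 with every mutant below every control. The sodium channel subunit Scnn1g, also chosen in that way, was at -0.44. None of these genes passed in limma.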
